A study of Homo sapiens with 6 samples.

Results

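Potassium channel genes were examined in RPMI-8402, an established line grown from a human T cell leukaemia, after induction of guide RNAs against MYC. The genes were chosen by symbol (KCN, then letters, then a number) and by a count of 30 or more summed over the 6 sequenced samples, which left 36 of 96 gene identifiers with such a symbol, out of 63677 gene identifiers in the count table. The summed count weighs both groups alike and is given as a description, since it chose the genes. Of the other 60 identifiers, 21 had no count in any sample, 26 had 1 to 9 counts and 13 had 10 to 29. The question was whether genes at low levels with no evident role in the lineage rise as a class. "Low" applied to only some of the genes: 15 of the 36 had a mean level under 1 CPM (counts scaled to a common library total), and 7 had 16 CPM or more.

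The doxycycline group held 3 samples of RPMI-8402 cells that stably express Cas9, in which doxycycline had induced guide RNAs targeting MYC for 72 hours. The DMSO group held 3 samples of the same Cas9 cells given the solvent, and its labels carry the same MYC_KO genotype. Both groups grew in medium with tetracycline-free serum. The labels name no sample with doxycycline but no guides, so the drug and the guides cannot be told apart. The labels do not state whether replicates came from separate cultures. The spread behind each p-value is that of these 6 samples and may be technical.

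Potassium channels let potassium ions leave or enter a cell and so set its resting voltage. In T cells an outward potassium current keeps the membrane negative, which sustains the entry of calcium through store-operated channels after the antigen receptor is engaged. The voltage-gated channel KCNA3 and the calcium-activated channel KCNN4 carry most of this current, and tandem-pore channels such as KCNK5 add a leak current that serves cell volume. Pore-forming subunits act with auxiliary subunits, among them the KCNAB proteins in the cytosol and the calcium-binding KCNIP proteins. Many other family members are known mainly from neurons, heart or kidney.

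Total counts ran from 25819386 to 26214598 in doxycycline samples and from 23121255 to 25412493 in DMSO samples. CPM were scaled by TMM, which adjusts for RNA composition, and in bulk samples fewer cells of a type and less RNA per cell cannot be told apart. MYC stood at 457, 430.0 and 430.2 CPM in doxycycline samples against 409.5, 424 and 407 CPM in DMSO samples, a log2 fold change of 0.09 (SE 0.050, edgeR adjusted p = 0.205), so the targeted gene was not lower at the level of counts. The T cell label was borne out by CD3D, CD3E, CD2 and LCK, which averaged 161, 943, 93.4 and 638 CPM in doxycycline samples and 164, 978, 92.1 and 625 CPM in DMSO samples. Marker sets of epithelium and muscle summed to at most 0.151 CPM in a doxycycline sample and at most 0.166 CPM in a DMSO sample. The 18 T cell genes summed to 4831 to 4999 CPM in doxycycline samples and 4577 to 4699 CPM in DMSO samples. Of 17 tested, 4 were higher and 1 lower, against 12.3% and 14.4% of all genes tested.

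In the doxycycline samples, 9 of the 36 potassium channel genes rose and 1 fell, while 26 did not pass the test. Among the genes that rose were KCNK5, KCNAB2, KCND1, KCNA6, KCNK17, KCNIP2, KCNJ5 and KCNIP3, by 1.17-fold to 2.75-fold, and KCNQ5 fell to 0.480 of its DMSO level. The test was edgeR's quasi-likelihood test on all 17206 genes with a summed count of 30 or more, called at a Benjamini-Hochberg adjusted p under 0.05. Across all these genes 12.3% were called higher and 14.4% lower. The median log2 fold change was 0.14 over the 36 genes and 0.00 over all genes tested, and that of the 36 was 0.22 without doxycycline replicate 3. At an unadjusted p under 0.05, 12 of the 36 were higher and 2 lower, against 17.8% and 19.9% of all genes tested. With upper-quartile scaling, where 18% of all genes were called higher and 8.35% lower, 11 of the 36 were higher and 1 lower. Library size alone, with 16.2% and 9.22%, gave the same 2 counts. DESeq2, with 10.5% and 14.7% of genes that had an adjusted p, called 5 higher and 1 lower among the 24 that had one. filterByExpr, edgeR's own filter on low counts, left 32 of the 36, of which 9 were higher and 1 lower where 13.8% and 15.5% of all genes were. With GC content and gene length corrected, where 9.92% and 10.2% of genes were called higher and lower, 5 of the 36 rose and 2 fell. In the authors' deposited table of DESeq2 results, where 9.79% of genes with an adjusted p-value were higher and 15.6% lower, 22 of the 36 genes had an adjusted p-value, of which 5 were higher and 1 was lower. Both T cell channels that carry most of the current, KCNA3 and KCNN4, were among the 26 that did not pass.

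**Figure D1:**
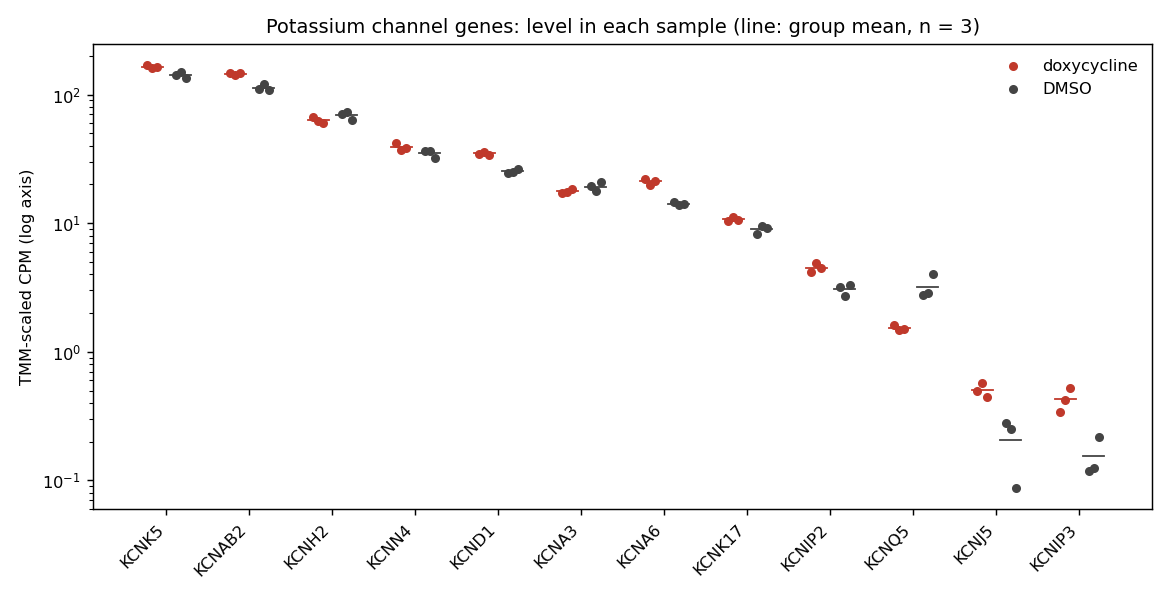
Level of 12 potassium channel genes in each sample, as TMM-scaled CPM on a log axis, with 3 doxycycline samples (red) left of 3 DMSO samples (grey) and a line at each group mean. The genes span from about 165 CPM for KCNK5 with doxycycline to under 1 CPM for KCNJ5 and KCNIP3, and KCNQ5 is the one gene called lower.

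Promoter windows are shown for 4 genes on which the results turn: KCNK5 had the highest level, KCNAB2 and KCND1 rose, and KCNQ5 fell. RefSeq windows on GRCh38.p14, from 250 bases before to 50 bases after a transcript start, were matched by symbol for 28 of the 36 genes, with 48 windows in all. The windows lie at chr6:39229426-39229725 (minus strand) for KCNK5, chr1:6034438-6034737 (plus) for KCNAB2, chrX:48971795-48972094 (minus) for KCND1 and chr6:72621814-72622113 (plus) for KCNQ5. They are written 5′ to 3′ on the gene's strand in lower case. Capitals mark CACGTG, the E-box that MYC with its partner MAX is known to bind, and GGGCGG or its reverse complement CCGCCC, the GC box.
KCNK5: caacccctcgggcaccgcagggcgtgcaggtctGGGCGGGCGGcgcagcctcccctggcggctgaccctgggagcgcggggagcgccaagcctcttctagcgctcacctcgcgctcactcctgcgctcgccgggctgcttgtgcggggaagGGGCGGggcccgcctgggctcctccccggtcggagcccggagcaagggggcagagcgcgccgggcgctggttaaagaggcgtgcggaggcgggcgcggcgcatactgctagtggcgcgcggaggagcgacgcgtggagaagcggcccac
KCNAB2: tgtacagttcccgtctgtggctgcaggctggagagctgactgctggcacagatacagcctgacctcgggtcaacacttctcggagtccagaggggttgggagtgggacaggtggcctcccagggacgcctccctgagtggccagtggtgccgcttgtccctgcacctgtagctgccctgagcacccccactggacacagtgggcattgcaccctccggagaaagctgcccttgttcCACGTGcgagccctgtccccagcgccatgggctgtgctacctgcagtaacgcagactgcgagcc
KCND1: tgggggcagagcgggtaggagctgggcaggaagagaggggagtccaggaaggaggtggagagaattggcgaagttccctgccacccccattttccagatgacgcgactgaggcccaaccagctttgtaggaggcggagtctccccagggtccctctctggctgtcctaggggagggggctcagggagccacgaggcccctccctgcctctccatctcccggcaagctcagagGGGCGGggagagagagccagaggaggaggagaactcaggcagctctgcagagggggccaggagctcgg
KCNQ5: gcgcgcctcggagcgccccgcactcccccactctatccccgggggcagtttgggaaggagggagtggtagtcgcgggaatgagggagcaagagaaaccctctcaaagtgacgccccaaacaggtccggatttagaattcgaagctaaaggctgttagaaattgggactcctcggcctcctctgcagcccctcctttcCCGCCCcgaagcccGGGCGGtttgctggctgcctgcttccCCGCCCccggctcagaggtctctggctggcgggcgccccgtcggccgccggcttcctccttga
The KCNAB2 window shown is 1 of 4 for that gene and the one that holds an E-box. The KCNK5 and KCNQ5 windows each held 3 GC boxes and the KCND1 window 1, and none of these 3 held CACGTG. Over the 28 matched genes, 4 had a window with CACGTG (KCNAB2, KCNAB1, KCND2 and KCNN4) and 20 had a window with a GC box. By window, 5 of 48 held CACGTG and 25 of 48 a GC box, where 7.26% and 45% of all 35116 windows in the table did. Of 8 matched genes that rose, 1 had CACGTG and 5 had a GC box. Both strands were searched, and overlapping GC boxes were each counted, as in the run of 10 capitals in the KCNK5 window. A match describes letters only.

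KCNK5, the tandem-pore leak channel of T cells, was the most abundant of the group and rose. It stood at 169, 159.6 and 165 CPM in doxycycline samples, against 141, 149 and 134 CPM in DMSO samples. All doxycycline samples lay above all DMSO samples. The log2 fold change was 0.22 (SE 0.052, edgeR adjusted p = 0.00179), and with GC content and length corrected KCNK5 did not pass, at 0.10 (edgeR adjusted p = 0.0655). KCNK5 alone held 29.1% of the counts of the 36 genes, and together with KCNAB2 53.8%. Its mean level exceeded that of 91.4% of all genes tested.

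The calcium-activated channel KCNN4, which opens when calcium rises in an activated T cell, was at 41.8, 37.2 and 38.7 CPM in doxycycline samples and at 36.3, 36.4 and 31.8 CPM in DMSO samples. These groups did not overlap, by a narrow margin. Its log2 fold change of 0.17 (SE 0.066) fell just short of the threshold (edgeR adjusted p = 0.0544). KCNN4 passed as higher with upper-quartile scaling (0.23, edgeR adjusted p = 0.00867) and with filterByExpr (edgeR adjusted p = 0.0453). It also passed without DMSO replicate 2 (edgeR adjusted p = 0.0311) and without doxycycline replicate 2 (0.0414). KCNN4 was further from the threshold with DESeq2 (adjusted p = 0.0895) and with GC content and length corrected (0.08, edgeR adjusted p = 0.340). The same held without DMSO replicate 3 (0.11, edgeR adjusted p = 0.261) and without doxycycline replicate 1 (0.12, edgeR adjusted p = 0.26).

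KCNA3, the voltage-gated channel that holds the resting voltage of T cells, stood at 17.1, 17.5 and 18.5 CPM in doxycycline samples and at 19.3, 17.8 and 20.8 CPM in DMSO samples. The groups overlapped, and the log2 fold change was -0.12 with a 95% interval from -0.27 to 0.03 (edgeR adjusted p = 0.250). KCNH2, the hERG channel that repolarises heart muscle, was at 66.3, 62.0 and 60.5 CPM in doxycycline samples and at 70.7, 73.5 and 63.8 CPM in DMSO samples, with overlapping groups. Its log2 fold change was -0.14 (SE 0.059, edgeR adjusted p = 0.0797), and it was called lower with GC content and length corrected, at -0.35 (edgeR adjusted p = 1.81e-05). KCNH2 was also called lower without DMSO replicate 3 (-0.20, edgeR adjusted p = 0.0154) and without doxycycline replicate 1 (-0.18, edgeR adjusted p = 0.0455).

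Per kilobase of exon, the 36 genes had a steep order of levels. Over all samples KCNK5 averaged 40.7 CPM per kilobase, KCNAB2 13.5, KCNH2 11.3, KCNN4 10.9, KCNA3 7.20 and KCND1 5.18 CPM per kilobase. KCNH2 and KCNN4 changed places between groups: KCNH2 was at 10.7 and KCNN4 at 11.5 CPM per kilobase with doxycycline, against 11.8 and 10.2 CPM per kilobase with DMSO. The lowest were KCNIP3 and KCNT1, at 0.0369 and 0.0347 CPM per kilobase. Exon lengths were those of GENCODE 29, whose gene models may differ from those behind the counts.

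Of 13 pore-forming voltage-gated genes, 3 rose, among them KCND1 and KCNA6, and 1 fell (KCNQ5), with a median log2 fold change of 0.08. Across all genes tested 12.3% were called higher and 14.4% lower. KCND1, which carries a fast inactivating current, was at 34.8, 36 and 33.8 CPM in doxycycline samples against 24.7, 24.9 and 26.3 CPM in DMSO samples. Its groups were well apart, with means of 34.8 ± 1.13 and 25.3 ± 0.878 CPM for doxycycline and DMSO (SD, n = 3 each). The log2 fold change was 0.46 (SE 0.064, edgeR adjusted p = 3.84e-06). A second identifier with the symbol KCND1 lies among the 60 below the count threshold.

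KCNA6, a delayed rectifier known from neurons and a relative of KCNA3, was at 22.2, 19.8 and 21.4 CPM in doxycycline samples against 14.7, 13.8 and 14.1 CPM in DMSO samples. The groups did not overlap, and the log2 fold change of 0.57 (SE 0.075, edgeR adjusted p = 1.85e-06) was the largest among the 7 genes with a mean of 16 CPM or more. In GENCODE 29 the whole exon length of KCNA6 also lies inside exons of GALNT8 on the same strand, a gene with 11 counts in all, so the assignment of these reads is uncertain.

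KCNQ5, which belongs to the channels of the neuronal M-current, was the gene that fell. It stood at 1.63, 1.48 and 1.49 CPM in doxycycline samples, against 2.78, 2.86 and 4.01 CPM in DMSO samples. The highest doxycycline sample lay well below the lowest DMSO sample, and DMSO replicate 3 was the highest of all. Raw counts were 43, 39 and 40 with doxycycline and 70, 69 and 92 with DMSO. The log2 fold change was -1.06 (SE 0.184, edgeR adjusted p = 7.87e-05), and it stayed between -1.18 and -0.88 under every alternative tried, always past the threshold. With GC content and length corrected it was -1.05 (edgeR adjusted p = 2.54e-04). The authors' deposited table gives KCNQ5 a log2 fold change of -1.07 with an adjusted p-value of 4.43e-04.

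The other voltage-gated pore-forming genes did not pass. KCNC4, a channel of fast-spiking neurons, averaged 13.3 ± 0.856 CPM with doxycycline and 12.6 ± 0.549 CPM with DMSO (SD, n = 3 each). KCNS3, a silent partner subunit, averaged 4.57 ± 0.727 CPM with doxycycline and 5 ± 0.463 CPM with DMSO. In both genes the groups overlapped. KCNQ3, which pairs with KCNQ5 in neurons, had a log2 fold change of -0.32 with an interval from -0.84 to 0.19, and its groups did not overlap. KCNH3, KCNH8, KCND2 and KCNV2 had mean levels under 1 CPM and log2 fold changes of 0.63, 0.17, 0.09 and -0.38, with adjusted p from 0.239 to 0.898 in edgeR.

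Of 6 auxiliary genes, 3 rose (KCNAB2, KCNIP2 and KCNIP3) and none fell, against 12.3% and 14.4% of all genes tested. Their median log2 fold change was 0.46. KCNAB2, a cytosolic subunit that binds voltage-gated channels of the KCNA group, was at 146.4, 143 and 146.4 CPM in doxycycline samples against 109.7, 122 and 108 CPM in DMSO samples. All doxycycline samples were above all DMSO samples. Its log2 fold change was 0.36 (SE 0.053, edgeR adjusted p = 9.19e-06), and 0.21 with GC content and length corrected (edgeR adjusted p = 9.30e-04).

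KCNIP2, a calcium-binding partner of KCND channels in heart muscle, was at 4.16, 4.87 and 4.48 CPM in doxycycline samples against 3.22, 2.70 and 3.32 CPM in DMSO samples. The groups did not overlap, and its log2 fold change was 0.55 (SE 0.140, edgeR adjusted p = 0.00378). Of the KCND genes among the 36, KCND1 also rose, as given above. KCND2 did not pass (log2 fold change 0.09, edgeR adjusted p = 0.898), and its groups overlapped. KCNIP2-AS1, an antisense gene that overlaps 12.2% of the KCNIP2 exon length, had 40 counts in all, against 580 for KCNIP2. KCNIP3, also known as calsenilin or DREAM, a calcium-binding repressor of transcription, had 9, 11 and 14 raw counts in doxycycline samples against 3, 3 and 5 in DMSO samples. Those counts are few but do not overlap, and the log2 fold change was 1.46 (SE 0.480, edgeR adjusted p = 0.0227). KCNIP3 was the one gene of the 36 that had under 15 counts in all in a group, 34 with doxycycline and 11 with DMSO, so it reached the threshold of 30 through the group where it is high and its call is not independent of that choice. filterByExpr removes KCNIP3, and DESeq2 gave it no adjusted p. It did not pass without DMSO replicate 1 (edgeR adjusted p = 0.0880), DMSO replicate 2 (0.0761) or doxycycline replicate 3 (0.0895). KCNAB3, KCNAB1 and KCNIP4 had log2 fold changes of -0.04, 0.64 and 0.02 and did not pass.

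Of 5 tandem-pore genes, KCNK5 and KCNK17 rose and none fell, against 12.3% and 14.4% of all genes tested. KCNK17, a channel that opens at alkaline pH and neighbours KCNK5 on chromosome 6, was at 10.4, 11.2 and 10.6 CPM in doxycycline samples against 8.30, 9.46 and 9.16 CPM in DMSO samples. The groups did not overlap (log2 fold change 0.26, SE 0.092, edgeR adjusted p = 0.0332), but the call did not hold with DESeq2 (adjusted p = 0.0874), with no filter on low counts (edgeR adjusted p = 0.0624), with GC content and length corrected (0.24, edgeR adjusted p = 0.0541), without DMSO replicate 1 (0.163), or without doxycycline replicate 1 (0.0515), 2 (0.121) or 3 (0.0679). The other 3 did not pass. KCNK7 had a log2 fold change of -0.29 (95% interval -1 to 0.42), the acid-sensitive KCNK9 one of -0.19 (-1.09 to 0.71) and KCNK12 one of 0.09 (-0.46 to 0.65).

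None of the 6 calcium-activated or sodium-activated genes passed the test, and all 6 had positive log2 fold changes, with a median of 0.20. In 4 of them (KCNN4, KCNN3, KCNMB4 and KCNT1) the groups did not overlap, with doxycycline higher, as in 19.4% of all genes tested. KCNN3, a small-conductance channel, averaged 6.82 ± 0.730 CPM in doxycycline samples and 5.59 ± 0.224 CPM in DMSO samples (SD, n = 3 each), with a log2 fold change of 0.29 (SE 0.113, edgeR adjusted p = 0.0584), and passed without doxycycline replicate 3 (0.37, edgeR adjusted p = 0.0310). KCNMB4, an auxiliary subunit of the large-conductance channel, averaged 2.98 ± 0.332 CPM in doxycycline samples and 2.55 ± 0.0889 CPM in DMSO samples (edgeR adjusted p = 0.312). KCNMA1, the pore of that large-conductance channel, was not among the 36. KCNT1, a sodium-activated channel, had a log2 fold change of 0.82 with an interval from 0.05 to 1.58 (edgeR adjusted p = 0.122), and KCNT2 and KCNN2 were at 0.15 and 0.13.

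Of 6 inward rectifiers, KCNJ5 rose and none fell, against 12.3% and 14.4% of all genes tested. Their median log2 fold change was -0.01. KCNJ5, a subunit of the acetylcholine-gated current of the atrium, had 13, 15 and 12 raw counts in doxycycline samples against 7, 6 and 2 in DMSO samples. The groups did not overlap, and DMSO replicate 3 was the lowest. Its log2 fold change was 1.26 (SE 0.441, edgeR adjusted p = 0.0327), and it did not pass without DMSO replicate 3 (0.92, edgeR adjusted p = 0.156), without doxycycline replicate 1 (0.0623) or 2 (0.0913), or with GC content and length corrected (1.14, edgeR adjusted p = 0.0677). KCNJ11, the pore of the ATP-sensitive channel, averaged 3.10 ± 0.863 CPM in doxycycline samples and 3.51 ± 0.743 CPM in DMSO samples (SD, n = 3 each), with overlapping groups. KCNJ1, KCNJ2, KCNJ10 and KCNJ14, all under 1 CPM, ran from -0.30 to 0.34 on the log2 scale with adjusted p from 0.526 to 0.928 in edgeR.

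**Figure D2:**
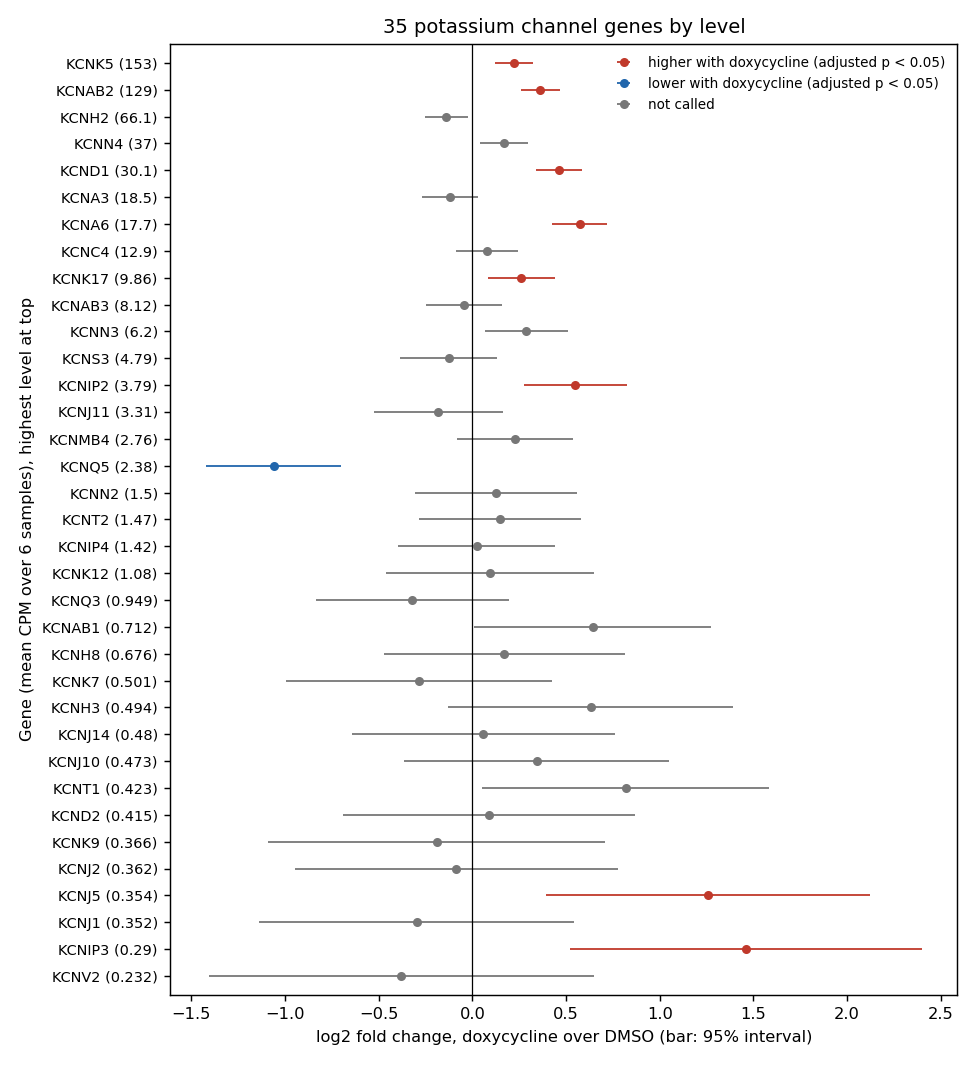
Log2 fold change, doxycycline over DMSO, of 35 potassium channel genes, ordered by mean CPM with the highest at the top, where bars are 95% intervals. Intervals widen towards the bottom, red points (8) are genes called higher, the blue point (KCNQ5) is the gene called lower and grey points (26) did not pass.

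The fold changes were set beside those of all genes at the same level. Among all 3941 genes with a mean under 1 CPM, 258 were called higher and 27 lower, or 6.55% and 0.685%, with a median log2 fold change of 0.22. For the 1488 protein-coding genes among them the shares were 11.8% and 0.336%, with a median of 0.35. Of the 15 potassium channel genes at that level, 2 were called higher (KCNJ5 and KCNIP3) and 0 lower, with a median of 0.09. KCNIP3 reached 30 counts through the doxycycline samples alone, and its call adds nothing to the count. With filterByExpr, which removes it, 1 of 11 was higher (KCNJ5) and 0 lower, against 8.62% and 0.808% of all genes at that level. That filter can keep genes that are high in 1 group only. KCNJ5 cleared it through its doxycycline samples (13, 15 and 12 counts, against 7, 6 and 2 with DMSO). This count is therefore not independent of the filter either. DESeq2 gave an adjusted p to only 3 of these 15 and called none. It called 1.45% of all 3941 genes at that level higher, where genes without an adjusted p count as not called. Without DMSO replicate 2 and doxycycline replicate 1, edgeR called 0 of the 15 higher, against 3.2% of all genes at that level. From 1 to 4 CPM, where 14% of all genes were called higher and 1.83% lower with a median of 0.13, 1 of 8 potassium channel genes was higher and 1 lower, with a median of 0.11. For protein-coding genes from 1 to 4 CPM the shares were 18.5% and 1.54%, with a median of 0.17. Over all genes under 1 CPM 66.5% of the log2 fold changes were positive, and over protein-coding genes at that level 75.1%. Of the 15 potassium channel genes 9 were positive. In both bands the median of the potassium channel genes was below that of all genes at the same level.

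At higher levels the comparison ran the other way. Among all 8125 genes at 16 CPM or more, 13% were called higher and 26.3% lower, with a median log2 fold change of -0.05. Of the 7 potassium channel genes there, 4 were called higher (KCNK5, KCNAB2, KCND1 and KCNA6) and 0 lower, with a median of 0.22. From 4 to 16 CPM, where 16.9% of all genes were higher and 9.89% lower with a median of 0.02, 2 of 6 potassium channel genes were higher and 0 lower, with a median of 0.17. These are counts and medians beside a background, and no test of the list was made. With GC content and length corrected, 3 of the 7 were higher and 1 lower at 16 CPM or more, against 8.82% and 19.3% of all genes at that level. From 4 to 16 CPM 0 of the 6 were called, against 15.2% higher and 4.13% lower of all genes.

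**Figure D3:**
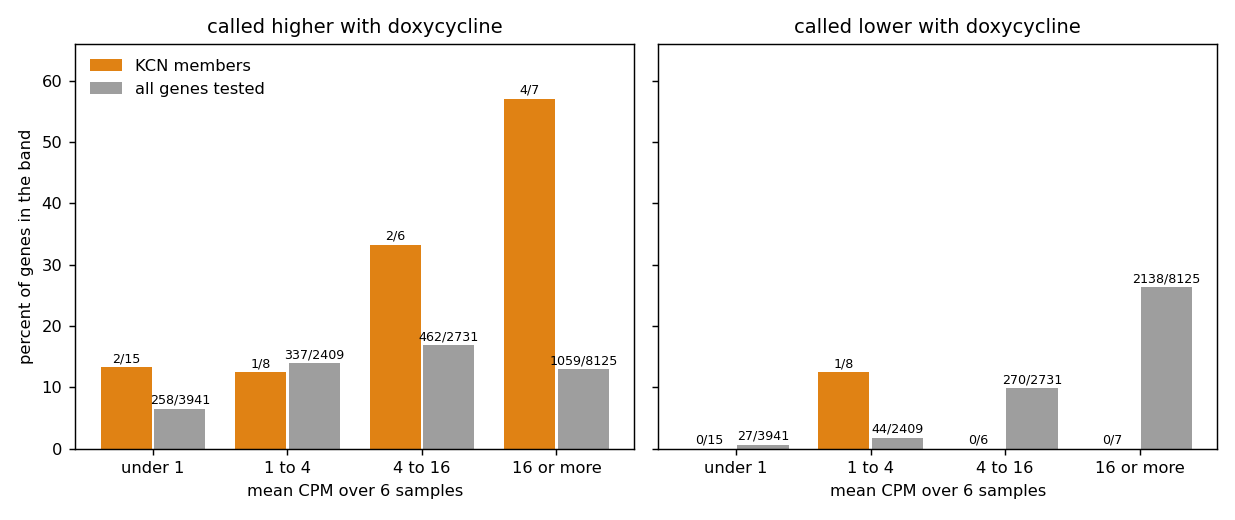
Percent of genes called higher (left) and lower (right) with doxycycline in bands of mean CPM, for potassium channel genes (orange) and all genes tested (grey), with counts above each bar. Calls among all genes lean to higher below 4 CPM and to lower at 16 CPM or more, where 4 of 7 potassium channel genes were higher.

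In 13 of the 36 genes every doxycycline sample was above every DMSO sample, and in 2 (KCNQ5 and KCNQ3) below. Across all genes tested these shares were 19.4% and 20%. For genes under 1 CPM they were 17% above and 3.58% below, and for protein-coding genes at that level 24.6% and 2.49%. Of the 15 potassium channel genes at that level 3 were above and 1 below. Those above include KCNIP3, which reached the count threshold through the doxycycline samples. With filterByExpr, which removes it, 2 of 11 were above (KCNJ5 and KCNT1) and 1 below, against 19.2% and 3.59% of all genes at that level. KCNJ5 and KCNT1 cleared that filter through their doxycycline samples. KCNT1 had 11, 14 and 18 counts with doxycycline against 7, 8 and 7 with DMSO. The count above is therefore not independent of the filter either. From 1 to 4 CPM, against 23.3% and 5.73% of all genes, 2 of 8 were above and 1 below. From 4 to 16 CPM, against 23.6% and 16.4%, 3 of 6 were above and 0 below. At 16 CPM or more, against 18% and 33.5%, 5 of 7 were above and 0 below.

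**Figure D4:**
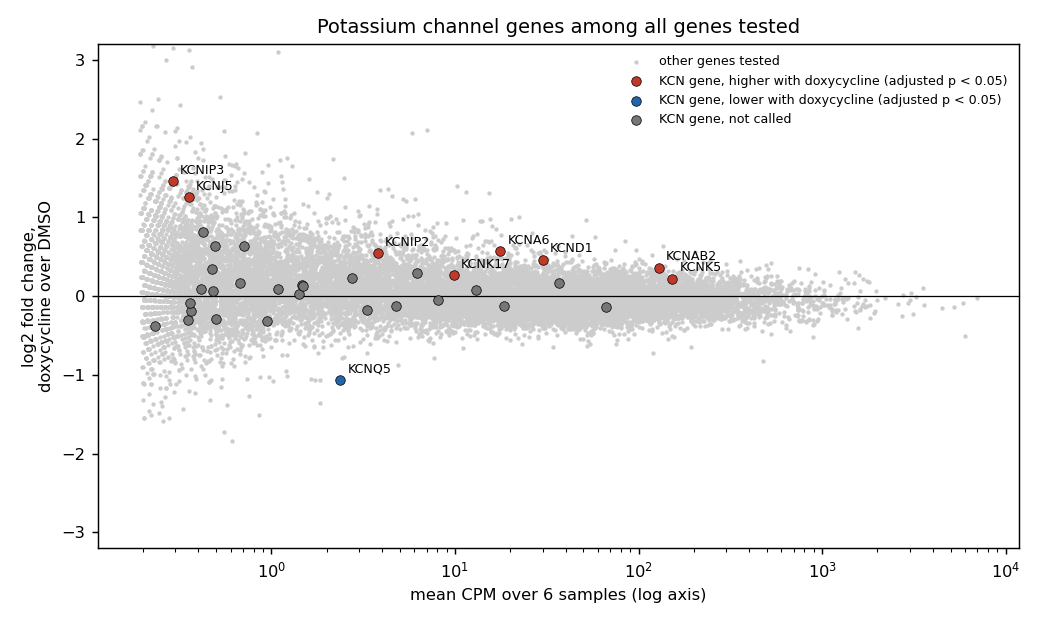
Log2 fold change, doxycycline over DMSO, against mean CPM (log axis) for genes tested (grey) and 35 potassium channel genes (coloured by call), with 2 genes outside the vertical range. The cloud of all genes leans upwards at the low end, and most coloured points lie within it.

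Summed levels gave the size of this shift. The 36 genes summed to 575, 552 and 558 CPM in doxycycline samples against 485, 507 and 471 CPM in DMSO samples, means of 562 ± 12.0 CPM with doxycycline and 488 ± 18.5 CPM with DMSO and a ratio of 1.15 (SD, n = 3 each). Without KCNK5 and KCNAB2 the sums were 252 ± 6.66 CPM with doxycycline and 233 ± 3.91 CPM with DMSO, a ratio of 1.08. The 15 genes under 1 CPM summed to 7.98, 7.54 and 7.31 CPM in doxycycline samples against 6.55, 6.47 and 6.63 CPM in DMSO samples, a ratio of 1.16. That sum includes KCNIP3, at 0.427 CPM with doxycycline and 0.154 CPM with DMSO. KCNIP3 reached the count threshold through the doxycycline samples, so this ratio is not independent of the choice of genes. All 3941 genes under 1 CPM summed to 2008 ± 9.24 and 1722 ± 23.4 CPM for doxycycline and DMSO, a ratio of 1.17. Genes of 16 CPM or more had a ratio of 0.964.

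The 60 identifiers with fewer than 30 counts summed to 68, 60 and 60 raw counts in doxycycline samples and to 39, 49 and 31 in DMSO samples. In scaled levels that was 2.57, 2.28 and 2.24 CPM in doxycycline samples against 1.55, 2.03 and 1.35 CPM in DMSO samples. The 13270 genes of any kind with 1 to 29 counts summed to 646 ± 9.95 CPM in doxycycline samples and 519 ± 17 CPM in DMSO samples (SD, n = 3 each). Just inside the threshold lay KCNV2, KCNIP3 and KCNJ1 with 35, 45 and 53 counts, and just outside it KCNA5, KCNG2 and KCNE2 with 28, 27 and 21. Genes with any count numbered 23932 to 24573 in doxycycline samples and 23188 to 23310 in DMSO samples, whose totals were lower.

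Other values moved with these levels, where across all genes tested 12.3% were called higher and 14.4% lower. Summed marker levels of other cell types were 16.3 to 17.1 CPM in doxycycline samples against 11.7 to 12.9 CPM in DMSO samples for 6 B cell genes, with 2 of 4 tested genes higher. For 6 myeloid genes they were 2.16 to 2.21 CPM with doxycycline against 1.08 to 1.27 CPM with DMSO, with 2 of 3 tested genes higher and CD33 at 0 in all samples. For 6 fibroblast genes they were 47.9 to 53.4 CPM with doxycycline against 40.5 to 40.7 CPM with DMSO, mostly COL1A1, with 1 of 2 tested genes higher and COL1A2, COL3A1 and LUM at 0. Summed neuronal genes overlapped between the groups, at 6.96 to 7.58 CPM with doxycycline and 5.84 to 7.80 CPM with DMSO, but 1 of 4 tested genes, SYN1, was higher, at 0.603 ± 0.294 CPM with doxycycline and 0.234 ± 0.0771 CPM with DMSO (SD, n = 3 each, edgeR adjusted p = 0.0245). The 514 olfactory receptor genes, of which 432 had no count, summed to 26.4 to 32.0 CPM in doxycycline samples and 26.6 to 30.6 CPM in DMSO samples, also overlapping. The part of these values in the potassium channel results was not tested.

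GC content also moved with the fold changes. Genes called higher had a median GC content of 57.6% and genes called lower 42.7%, where the 36 potassium channel genes ranged from 35.4% to 66.8% with a median of 55.3%. For each gene, a trend of GC content and transcript length fitted to well expressed genes of each sample was removed. That trend had a median of 0.07 on the log2 scale for the 36 genes and -0.04 for all genes. Against a background of 9.92% higher and 10.2% lower, KCNAB2, KCND1, KCNA6, KCNIP2 and KCNIP3 were then higher, and KCNQ5 and KCNH2 lower. KCND1 was at 0.35 (edgeR adjusted p = 1.52e-04), KCNA6 at 0.48 (3.36e-05), KCNIP2 at 0.49 (0.0150) and KCNIP3 at 1.34 (0.0480). A real change that runs along GC content would be taken out too. Among genes under 1 CPM the trend is extrapolated from genes of higher level. Their median was 0.31 with the correction, over 3687 genes with a GC content, against 0.22 without it, over 3941 genes. The 2 medians are thus not of the same genes. The part of GC content in these results was not tested.

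**Figure D5:**
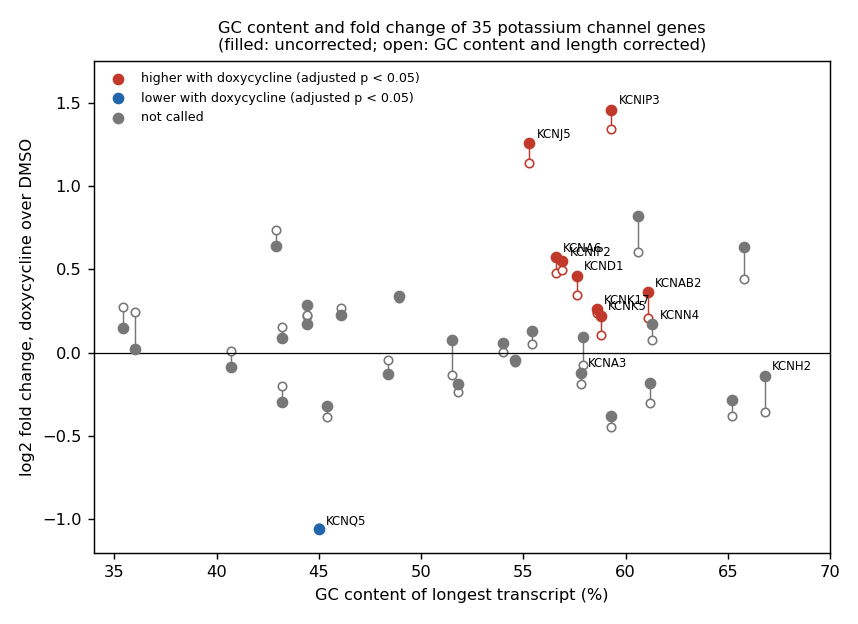
Log2 fold change, doxycycline over DMSO, of 35 of the genes against GC content of the longest transcript, with filled points before and open points after correction for GC content and length, joined by a line. Genes of high GC content move downwards with the correction, KCNH2 by the most among the 12 genes with values given per sample, while KCNQ5 hardly moves.

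Genes that act with potassium channels, taken from written lists, did not move in 1 direction. Of 23 tested genes of calcium entry and its signal, 7 rose and 6 fell, against 12.3% and 14.4% of all genes tested. Their median log2 fold change was -0.02. The 3 with the smallest p were CALM2, a calmodulin gene whose protein is the calcium sensor of KCNN4, PPP3R1, the regulatory subunit of calcineurin, and NFATC1, a transcription factor that calcineurin activates. CALM2 averaged 218 ± 9.97 CPM in doxycycline samples and 278 ± 1.15 CPM in DMSO samples (log2 fold change -0.35, edgeR adjusted p = 5.17e-06). PPP3R1 also fell by 0.35 on the log2 scale (edgeR adjusted p = 4.75e-05), and NFATC1 rose by 0.37 (edgeR adjusted p = 2.03e-05).

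The next 3 lists also stand against 12.3% of all genes tested called higher and 14.4% lower. Of 11 tested genes of potassium transport, 4 rose and 1 fell, with a median of 0.03. The potassium-chloride cotransporter SLC12A7 rose by 0.31 on the log2 scale, as did SLC12A9, a member of the same family, by 0.23. Of 15 tested regulators of these channels, 2 rose and 2 fell, with a median of -0.06. PIK3C2B, a lipid kinase that activates KCNN4, averaged 569 ± 26.5 CPM in doxycycline samples and 447 ± 14.5 CPM in DMSO samples (SD, n = 3 each), and rose by 0.35 on the log2 scale (edgeR adjusted p = 1.01e-05). WNK1, a kinase that acts on the SLC12 cotransporters, rose by 0.17, while the phosphatase PGAM5 fell by 0.22. Of 14 tested volume-regulated and other anion channel genes, 2 rose (CLCN7 by 0.34 and TTYH3 by 0.17) and 0 fell.

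Lists of other channel classes were counted in the same way, with no test of a list. Across all genes tested 12.3% were called higher and 14.4% lower. Among tested calcium channel genes 6 of 11 rose and 0 fell (median log2 fold change 0.15), and among sodium channels 2 of 10 rose and 0 fell (median 0.31). Their median levels were 1.85 and 2.68 CPM, in the band where 14% of all genes were higher and 1.83% lower. Genes called also lay outside that band, such as CACNB1 at 37.3 CPM and SCN8A at 22.5 CPM with doxycycline, so its shares are a rough measure. Among TRP channels, with a median level of 18.2 CPM, 3 of 8 rose and 0 fell (median 0.06). Among glutamate receptors, with a median level of 0.599 CPM, 3 of 9 rose and 1 fell (median 0.19). Of 7 nicotinic receptor genes 1 rose, and of 4 GABA and glycine receptor genes none was called, with a median of -0.16. CACNA1C, a pore subunit of an L-type calcium channel, averaged 11.5 ± 0.789 CPM in doxycycline samples and 7.53 ± 0.367 CPM in DMSO samples (SD, n = 3 each, edgeR adjusted p = 2.08e-05). Of 416 zinc finger genes with ZNF names, with a median level of 16.7 CPM, 40 rose and 28 fell, with a median of 0.00. Both are smaller shares than those over all genes tested.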

How the data were processed

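RNA-seq counts of 6 samples of 1 cell line were used, 3 per group. The authors deposited raw read counts per gene. STAR 2.5.2a, featureCounts, DESeq2 1.12.4 and hg19 are named, per the submitters' processing notes, without roles, while annotation and strand setting are not given in the sources used here. Per gene, the authors' deposited table has its mean signal (normalized counts), log2 fold change and error, a score (Wald statistic) and a p-value, raw and adjusted.

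Genes with 30 or more counts over the 6 samples (17206) were scaled with TMM and compared with edgeR 4.0.16 in R 4.3.3 (quasi-likelihood test, treatment as the sole term). This filter treats both groups alike. filterByExpr keeps 15492 genes, 32 of the 36. SE is the log2 fold change over the square root of F. Exon length, GC content and overlaps came from GENCODE 29 (GRCh38), matched by identifier for 96.77% of tested genes and all 36. The correction fitted splines (5 degrees of freedom) of GC content and log2 length to log2 CPM (prior count 2) of genes with mean log2 CPM above 2. The test was checked on simulated data. Alternatives used DESeq2 1.42.0, limma 3.58.1, other scalings and filters, a replicate block and left-out samples. An adjusted p that DESeq2 leaves empty was not counted as a lost call.

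The genes, lists and tests were chosen with earlier results of these data known. Per-sample values are given for genes called, the 6 highest per kilobase and known T cell channels, and up to 3 genes of smallest p are named per list. Values of 2 genes are not reported here, though counts over all genes and lists include them. T cell markers were an exception and were named after their values were seen.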

Additional observations from a re-analysis of the deposited data

How the results depend on the processing

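The number of potassium channel genes called higher, 9 of 36, was 5 with DESeq2 and 5 with GC content and length corrected, 11 with either upper-quartile factors or library size alone, and 6 to 8 when 1 sample was left out. It was 6 without DMSO replicate 2 and doxycycline replicate 1 together. Over all genes tested, 2116 (12.3%) were called higher, against 1505 to 2013 with 1 sample left out. Without DMSO replicate 2 and doxycycline replicate 1 together, 1599 (9.29%) of all genes were. The number called lower, 1, was 2 with GC content and length corrected and 1 to 2 with 1 sample left out. The median log2 fold change of the 36 genes, 0.14, ran from 0.0923 to 0.22 with 1 sample left out, the higher value without doxycycline replicate 3. Over all genes, 2479 were called lower, against 1436 with upper-quartile factors (3089 higher) and 1586 with library size alone (2788 higher). Over 12 named genes and all alternatives, 173 of 199 values kept direction and side of the threshold, 17 lost a call, 9 gained one and 0 reversed. A fit with the replicate number as a block gave 9 higher and 1 lower, as without it, and 2060 higher and 2357 lower over all genes. Deviations of same-numbered samples correlated at -0.058, -0.227 and 0.086, and samples did not correlate best with their own number throughout. Deviations from a mean of 3 samples are tied to each other, so this check cannot exclude pairing. Depth limits genes under 1 CPM most: their intervals span about 1 log2 unit or more.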
